A study of Homo sapiens with 12 samples.

Results

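The 10 genes described here encode enzymes with a Jumonji C domain, a fold that holds ferrous iron and uses 2-oxoglutarate and oxygen to oxidise its substrate. They are JMJD6, KDM2A, KDM3A, KDM3B, KDM4A, KDM4B, KDM4C, KDM5A, KDM5B and KDM6B, chosen by name from the 11963 genes that the array represents. The choice was made with earlier results of these data known. All 10 were measured, by 27 probe sets in all, and where a gene had several, the probe set brightest on average stands for it. RNA came from RCC4, an established line of clear cell kidney cancer without working VHL, the subunit of a ubiquitin ligase that recognises its substrates. The 4 groups were VHL cells (RCC4 with VHL put back) in cystine-deprived DMEM, VHL cells in full DMEM, Vec cells (RCC4 without VHL, carrying vector alone) in cystine-deprived DMEM, and Vec cells in full DMEM, each for 6 h and with 3 arrays. Both media held 10% serum, and the labels name dialysed serum for the deprived medium only, so loss of cystine and a change of serum cannot be told apart. The labels call the arrays biological replicates without naming separate cultures, so the p-values measure the spread between these samples, and they do not say whether either line is 1 clone.

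Most of the 10 enzymes take methyl groups off lysines of histone H3, and so counteract the methyltransferases that place them. KDM3A and KDM3B act on mono- and dimethylated lysine 9, KDM4A, KDM4B and KDM4C on trimethylated lysine 9 and lysine 36, KDM2A on lysine 36, KDM5A and KDM5B on the lysine 4 mark of active promoters, and KDM6B on the lysine 27 mark of Polycomb repression. JMJD6 differs in that it hydroxylates lysines of splicing proteins. In the presence of oxygen VHL has HIF-alpha, the regulated subunit of the hypoxia-inducible factor, degraded, so cells without VHL keep HIF active, and KDM3A and KDM4B are known as genes that HIF induces. Cells in culture import cystine and reduce it to cysteine, a building block of glutathione and of iron-sulphur clusters.

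Values are log2 expression values as deposited. Array medians lay between 7.12 and 7.18, lower quartiles between 5.53 and 5.63 and upper quartiles between 9.15 and 9.18. The kidney lineage factor PAX8 ranged from 10.8 to 11.1 and keratin 18 (KRT18) from 11.8 to 12.1 over the 12 arrays, while megalin (LRP2) and cubilin (CUBN) of the proximal tubule averaged 4.57 and 4.52, below every array's lower quartile. Measured blood markers averaged between 4.38 and 6.98 and endothelial markers between 4.39 and 5.67. Among 25 measured HIF targets, 22 were called lower (limma adjusted p under 0.05) and 1 higher in VHL than in Vec cells in deprived medium. In control medium 21 were called lower and 1 higher, and the median log2 differences were -1.38 and -1.48. Of all genes 23% were called lower in each medium, and 24.2% and 23.1% higher. On deprivation 8 of the 25 were called higher and 1 lower in VHL cells, and 3 higher and 1 lower in Vec cells. Of all genes 11.6% and 4.18% were called there. Under other processing choices the count of HIF targets called on deprivation ran from 3 to 11 in VHL and from 1 to 5 in Vec cells. The lowest counts came from leaving out probe sets ending in _x_at or _s_at, with 16 of the targets still measured. STC2 was called for the difference of the 2 responses (0.57, VHL minus Vec).

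VHL cells had less KDM4B, KDM3A, JMJD6, KDM4A, KDM4C and KDM6B and more KDM5B, KDM5A and KDM3B than Vec cells in both media. For KDM4C and KDM6B this rests on the brightest probe set, and neither was called in either medium with the mean of its probe sets. The largest differences were those of KDM4B, whose level in VHL cells was below that in Vec cells 2.08-fold in deprived and 2.10-fold in control medium, and of KDM5B, whose level was 1.75-fold and 1.91-fold higher. In deprived medium all 10 genes were called (limma adjusted p under 0.05), 3 higher and 7 lower, where 47.2% of all genes were called, 24.2% higher and 23% lower. In control medium 9 were called, 3 higher and 6 lower, against 46.1% of all genes, 23.1% higher and 23% lower. The same 9 were called the same way in both media, as were 38.9% of all genes. All 10 remained when the 30% of genes with the lowest mean were left out. Of the 8374 genes then tested, 5326 were called in deprived and 5286 in control medium, with 10 and 9 of the 10. Groups did not overlap for 10 of 10 genes in deprived medium (54.2% of all genes) and for 8 of 10 in control medium (53.2%). The median log2 difference of the 10 was -0.33 in deprived and -0.21 in control medium, beside 0.0035 and -0.00082 over all genes.

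**Figure D1:**
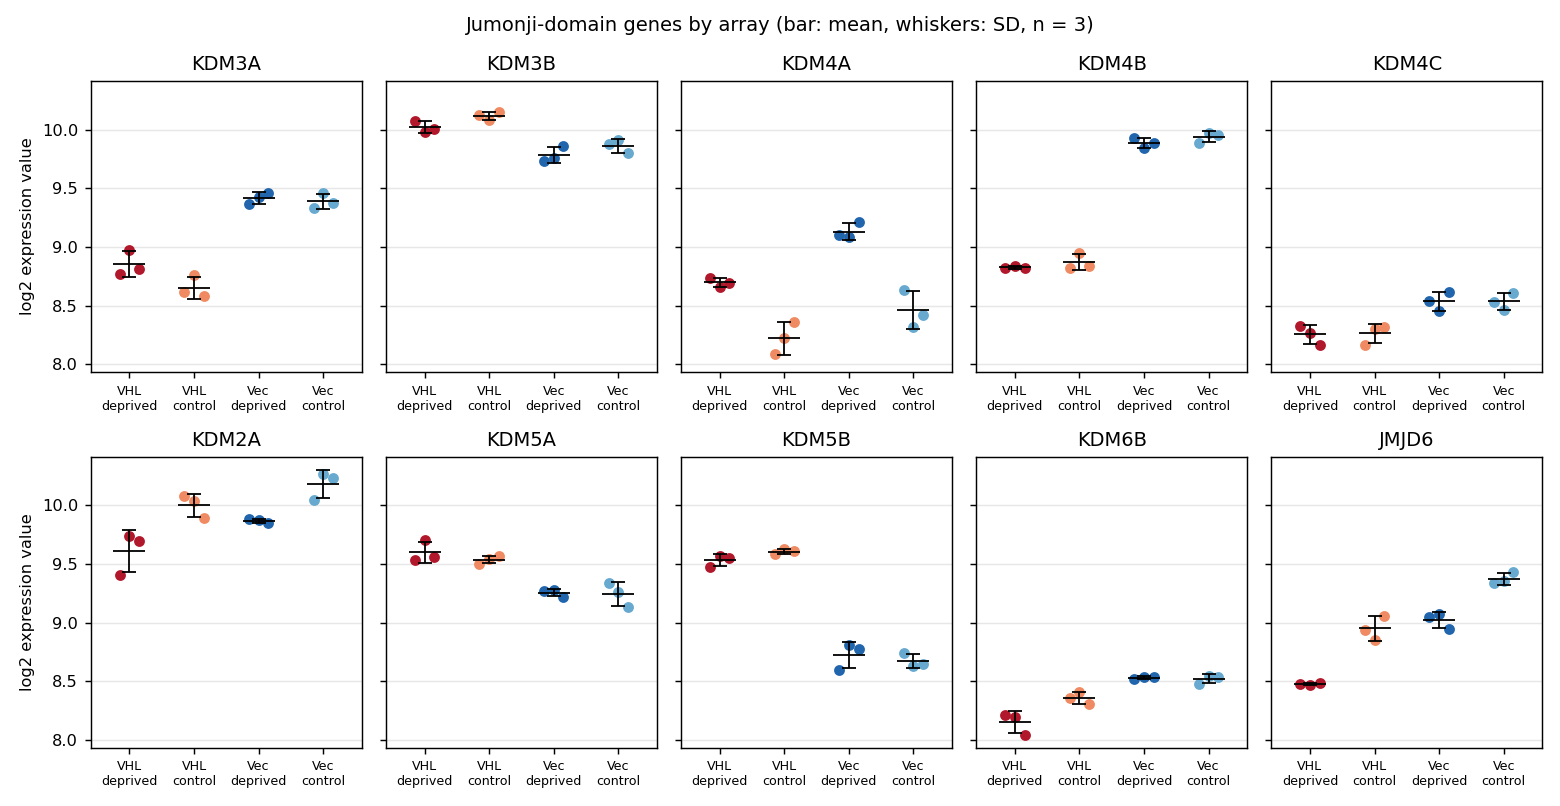
Log2 expression value of each of the 10 genes (vertical axis, same scale in every panel) on each of the 12 arrays, by group (horizontal axis). Points are arrays, bars are means and whiskers are SD (n = 3). KDM4B and KDM3A are lower and KDM5B is higher in both VHL groups than in both Vec groups, KDM4A is higher in each deprived group than in its control, and JMJD6 is lowest in VHL deprived cells.

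KDM4B, at chr19:4969113-5153598 in GRCh38.p14, read 8.82, 8.84 and 8.82 in VHL deprived, 8.82, 8.95 and 8.84 in VHL control, 9.93, 9.85 and 9.89 in Vec deprived and 9.89, 9.98 and 9.96 in Vec control cells. The VHL arrays and the Vec arrays did not overlap, and the media hardly separated within either line. VHL minus Vec was -1.06 ± 0.05 in deprived medium (SE; limma adjusted p = 1.29e-09) and -1.07 ± 0.05 in control medium (limma adjusted p = 1.25e-09), lower than the difference of all but 1.98% and 1.92% of genes. Of its 5 probe sets, 4 were called lower in each medium, where 41.6% of all 22215 probe sets were called in deprived and 40.8% in control medium. The dimmest, with a mean of 6.39, was not called.

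KDM3A, at chr2:86437044-86492716 and measured by 1 probe set, read 8.77, 8.98 and 8.81 in VHL deprived, 8.62, 8.76 and 8.58 in VHL control, 9.36, 9.43 and 9.46 in Vec deprived and 9.33, 9.46 and 9.38 in Vec control cells. Every VHL array was below every Vec array. The differences were -0.56 ± 0.07 in deprived medium (limma adjusted p = 8.73e-06) and -0.74 ± 0.07 in control medium (limma adjusted p = 7.35e-07). KDM4C, a paralogue of KDM4B at chr9:6720863-7175648, ranged from 8.17 to 8.33 in VHL deprived, 8.17 to 8.32 in VHL control, 8.46 to 8.61 in Vec deprived and 8.47 to 8.61 in Vec control cells. Its values were thus lower in VHL cells without overlap, with smaller differences of -0.28 ± 0.06 and -0.27 ± 0.06 (limma adjusted p = 0.00232 and 0.00288). The other KDM4C probe set was dim at a mean of 5.05 and not called, and with the mean of both probe sets KDM4C gave -0.135 in deprived and -0.121 in control medium and was not called (limma adjusted p = 0.116 and 0.161).

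The third KDM4 gene, KDM4A at chr1:43650149-43705518, was also lower in VHL cells, with differences of -0.43 ± 0.08 in deprived medium (limma adjusted p = 6.60e-04) and -0.24 ± 0.08 in control medium (limma adjusted p = 0.0313), and both of its probe sets were called in each medium. In control medium the groups overlapped, from 8.08 to 8.36 in VHL and 8.32 to 8.64 in Vec cells. That call was lost without VHL control replicate 1 (-0.169, limma adjusted p = 0.138) or 2 (-0.237, 0.0691), without Vec control replicate 1 (-0.149, 0.152), and with only the compared arrays in the fit (0.0724).

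KDM5B, at chr1:202724495-202808421, differed the other way. It read 9.47, 9.57 and 9.55 in VHL deprived, 9.58, 9.63 and 9.61 in VHL control, 8.60, 8.81 and 8.77 in Vec deprived and 8.74, 8.63 and 8.65 in Vec control cells. All VHL arrays lay above all Vec arrays, with differences of 0.81 ± 0.06 (limma adjusted p = 1.09e-07) in deprived and 0.93 ± 0.06 (limma adjusted p = 2.74e-08) in control medium, higher than those of 96.6% and 97.6% of genes. Of its 4 probe sets 3 were called higher in both media, at 0.75 to 0.93, and the dimmest, with a mean of 4.34, gave 0.0036 and 0.04. Only that dim probe set remains when the _x_at and _s_at probe sets, which can match several transcripts, are left out, and KDM5B was then not called (limma adjusted p = 0.970 and 0.644).

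KDM5A, its paralogue at chr12:280057-389320, was higher in VHL cells by 0.34 ± 0.06 in deprived and 0.29 ± 0.06 in control medium (limma adjusted p = 3.27e-04 and 0.00115). Its arrays ranged from 9.54 to 9.71 in VHL deprived, 9.50 to 9.57 in VHL control, 9.22 to 9.27 in Vec deprived and 9.13 to 9.34 in Vec control cells. No VHL array overlapped a Vec array. The second KDM5A probe set, with a mean of 6.51, was not called (0.01 and 0.09), so that without _x_at and _s_at probe sets KDM5A was not called either (limma adjusted p = 0.952 and 0.441). KDM3B, the paralogue of KDM3A at chr5:138352685-138437027, was higher in VHL cells by 0.24 ± 0.05 and 0.26 ± 0.05 (limma adjusted p = 0.00170 and 0.00102), with both probe sets called in both media. The KDM3 pair therefore differed in direction, KDM3A being lower and KDM3B higher in VHL cells.

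JMJD6, at chr17:76712836-76726606, was lower in VHL cells, with differences of -0.55 ± 0.06 in deprived and -0.43 ± 0.06 in control medium (limma adjusted p = 3.37e-06 and 3.48e-05), and all 3 of its probe sets were called lower in both. KDM6B, at chr17:7834217-7854796, gave -0.38 ± 0.05 in deprived and -0.17 ± 0.05 in control medium (limma adjusted p = 4.73e-05 and 0.0195), but 1 of its 3 probe sets was called, and the others gave between -0.0018 and 0.08. With the mean of the 3 it was not called in deprived (-0.0977, limma adjusted p = 0.172) or control medium (-0.0393, 0.616). The control medium call was also lost with quantile normalization (-0.140, 0.0529), with median centring (-0.140, 0.0602), and without VHL control replicate 3 (0.0754) or Vec control replicate 2 (0.0604) or 3 (0.0571).

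KDM2A, at chr11:67119263-67258082, was lower in VHL cells in deprived medium (-0.26 ± 0.09, limma adjusted p = 0.0266), and its 3 probe sets were all called there. Without VHL deprived replicate 1 the value was -0.152 (limma adjusted p = 0.121), and without any 1 Vec deprived array the adjusted p was between 0.0502 and 0.0675. In control medium KDM2A gave -0.18 ± 0.09 with a 95% interval of -0.37 to 0.01 (limma adjusted p = 0.113), and it was called there when its probe sets were averaged (-0.181, limma adjusted p = 0.00313), and likewise when Vec control replicate 1 was left out (-0.249, 0.0430).

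**Figure D2:**
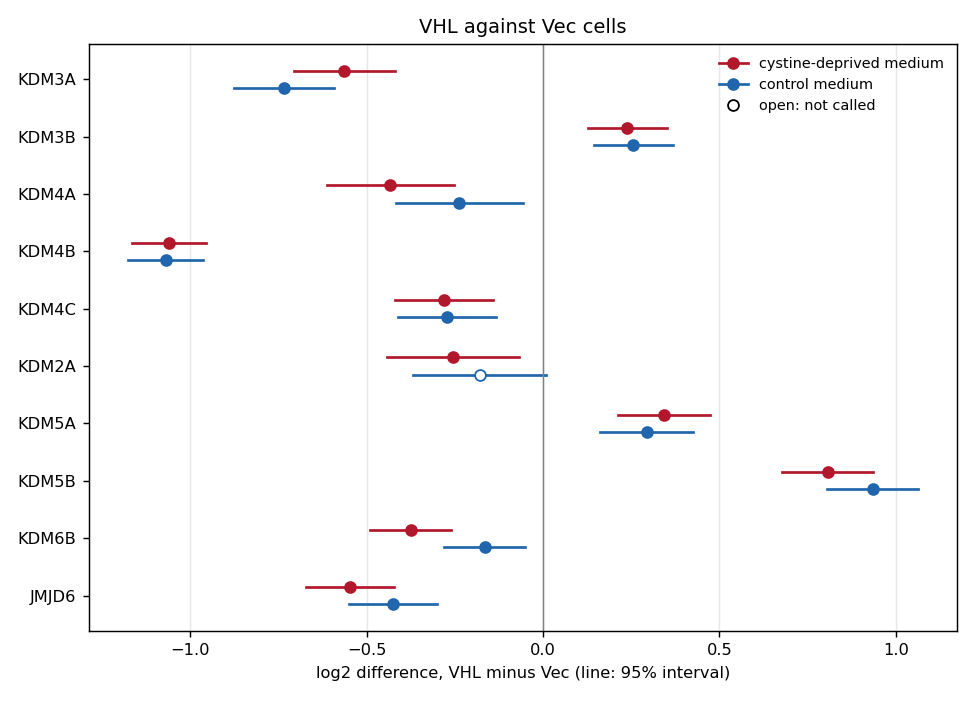
Log2 difference between VHL and Vec cells (horizontal axis, VHL minus Vec) for each of the 10 genes (vertical axis), in deprived and in control medium. Points are estimates of the limma fit, filled where called, and lines are 95% intervals. KDM4B lies near -1.06 and KDM5B near 0.81 and 0.93, and KDM2A in control medium is the open point.

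The sequence just upstream of 5 of these genes is shown, since HIF, which VHL restrains, binds the hypoxia response element. The core of that element, ACGTG or GCGTG on either strand, is in capitals. All 5 hold it, but not every called gene does. KDM3B, called higher in VHL cells in both media, had no match and is not shown. KDM4B, KDM3A, KDM4C and KDM4A were lower and KDM5B higher in VHL cells. Each is the 250 bases before a RefSeq transcript start of GRCh38.p14, read 5′ to 3′ on the gene's strand. The coordinates are chr19:4968863-4969112 (plus strand) for KDM4B, chr2:86441121-86441370 (plus) for KDM3A, chr9:6757723-6757972 (plus) for KDM4C, chr1:43649899-43650148 (plus) for KDM4A and chr1:202808422-202808671 (minus) for KDM5B. The KDM3A and KDM4C starts lie inside the annotated span of their genes, which begins further upstream.
KDM4B: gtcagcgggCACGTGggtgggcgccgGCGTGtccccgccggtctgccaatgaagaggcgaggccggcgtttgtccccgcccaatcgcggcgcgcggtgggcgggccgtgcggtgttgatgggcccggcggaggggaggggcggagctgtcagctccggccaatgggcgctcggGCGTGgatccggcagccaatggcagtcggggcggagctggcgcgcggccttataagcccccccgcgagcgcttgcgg
KDM3A: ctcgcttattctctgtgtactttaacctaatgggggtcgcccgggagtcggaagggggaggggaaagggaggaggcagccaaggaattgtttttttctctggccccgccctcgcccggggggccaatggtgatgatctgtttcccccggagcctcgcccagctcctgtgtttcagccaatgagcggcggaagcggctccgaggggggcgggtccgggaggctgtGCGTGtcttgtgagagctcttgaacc
KDM4C: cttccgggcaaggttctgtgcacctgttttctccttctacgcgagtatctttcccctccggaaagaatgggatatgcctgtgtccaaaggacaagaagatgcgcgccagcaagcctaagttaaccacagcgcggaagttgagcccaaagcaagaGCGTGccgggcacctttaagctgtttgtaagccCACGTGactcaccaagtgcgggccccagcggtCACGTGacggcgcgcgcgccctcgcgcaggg
KDM4A: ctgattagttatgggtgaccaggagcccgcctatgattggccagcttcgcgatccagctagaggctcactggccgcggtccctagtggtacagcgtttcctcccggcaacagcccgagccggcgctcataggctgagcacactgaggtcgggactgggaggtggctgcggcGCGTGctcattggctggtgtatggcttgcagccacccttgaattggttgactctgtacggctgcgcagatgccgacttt
KDM5B: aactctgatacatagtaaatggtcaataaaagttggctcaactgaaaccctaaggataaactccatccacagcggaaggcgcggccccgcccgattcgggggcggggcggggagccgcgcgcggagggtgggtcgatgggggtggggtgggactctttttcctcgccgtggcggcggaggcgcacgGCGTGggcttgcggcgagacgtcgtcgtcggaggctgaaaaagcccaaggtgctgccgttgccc

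In the full windows, from 250 bases before to 50 after a start, KDM4B held 4 matches, KDM4C 5, KDM3A, KDM4A and KDM5B 1 each, and a CACGTG counts as 2 because it is read on both strands and the readings overlap. The promoter table held windows for 9 of the 10 genes, and 8 of these had a match in at least 1 window, KDM3B having none. By window, 9 of the 12 windows of these genes held a match, against 48.4% of all 35116 windows. The KDM3A windows overlap and hold the same match, which is counted in each, so the windows are not independent. The core contains CG, and the GC content of the 12 windows was 53% to 77%, above the median of 58.7% over all windows in all but 1, a window of KDM6B. The part of base composition in these matches was not tested. The letters were therefore present upstream of genes that were lower in VHL cells and of KDM5B and KDM5A, which were higher. An ATF4 and C/EBP element, TGATGNAA, occurred in 3.6% of all windows and in none of these genes, and a pair of heat shock units, GAANNTTC or TTCNNGAA, in 13.5% of all windows and in 1 window each of KDM5A and KDM6B. A match in letters is not a bound site.

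After 6 h in cystine-deprived medium KDM4A rose and JMJD6 fell in both lines, and in VHL cells KDM2A and KDM6B also fell. KDM4A rose 1.39-fold in VHL and 1.59-fold in Vec cells, and JMJD6 dropped 1.39-fold and 1.28-fold. In VHL cells 4 of 10 genes were called, 1 higher and 3 lower, where 11.6% of all genes were called (6.16% higher and 5.48% lower). In Vec cells 2 of 10 were called, 1 higher and 1 lower, where 4.18% of all genes were (2.11% higher and 2.06% lower). These 2 were called the same way in both lines, as were 2.82% of all genes. Without the 30% of genes with the lowest mean, 1707 of 8374 genes were called in VHL and 691 in Vec cells, with 5 and 3 of the 10. Centring each array on its median turned the split of all calls in VHL cells from 737 higher and 655 lower to 550 higher and 873 lower, and left 4 members called. Groups did not overlap for 7 of 10 genes in VHL cells (30.6% of all genes) and 3 of 10 in Vec cells (22.7%). The median log2 difference of the 10 was -0.06 in VHL and 0.0044 in Vec cells, beside 0.01 and 0.0055 over all genes.

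KDM4A read 8.74, 8.66 and 8.70 in VHL deprived, 8.08, 8.22 and 8.36 in VHL control, 9.10, 9.08 and 9.21 in Vec deprived and 8.64, 8.32 and 8.42 in Vec control cells. Each deprived group lay above its control group without overlap, and Vec deprived cells were the highest of the 4 groups. The rise was 0.48 ± 0.08 in VHL cells (limma adjusted p = 0.00299), above that of 99.1% of genes, and 0.67 ± 0.08 in Vec cells (limma adjusted p = 4.84e-04), above 99.7%. Both probe sets were called higher in both lines, where 8.52% of all probe sets were called in VHL and 2.68% in Vec cells, the second by 0.45 and 0.49, and the gene was called under all 15 alternatives in each line. Its paralogues did not pass the test: KDM4B gave -0.05 ± 0.05 in VHL cells with a 95% interval of -0.15 to 0.06 and -0.06 ± 0.05 in Vec cells (-0.16 to 0.05), and KDM4C gave -0.01 ± 0.06 (-0.15 to 0.13) and 0.00061 ± 0.06 (-0.14 to 0.14).

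JMJD6 read 8.47, 8.47 and 8.48 in VHL deprived, 8.94, 8.85 and 9.06 in VHL control, 9.05, 9.07 and 8.95 in Vec deprived and 9.34, 9.35 and 9.44 in Vec control cells. The 3 arrays of VHL deprived cells were below all others, the 3 of Vec control cells were above all others, and VHL control and Vec deprived cells overlapped in between. The difference was -0.48 ± 0.06 in VHL cells (limma adjusted p = 2.18e-04), with 0.401% of genes lower still, and -0.35 ± 0.06 in Vec cells (limma adjusted p = 0.00408), with 0.493% lower still. It was called under all 15 alternatives in each line. Of its 3 probe sets, 2 were called lower in VHL and 1 in Vec cells, and the dimmest gave -0.02 and -0.19.

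KDM2A read 9.40, 9.74 and 9.70 in VHL deprived, 10.08, 10.04 and 9.89 in VHL control, 9.89, 9.87 and 9.85 in Vec deprived and 10.04, 10.27 and 10.23 in Vec control cells. In both lines the deprived arrays lay below the control arrays, and within the VHL deprived group replicate 1 was the lowest. The difference was -0.39 ± 0.09 in VHL cells (limma adjusted p = 0.0128), lost without VHL control replicate 1 (-0.350, 0.0563), and -0.31 ± 0.09 in Vec cells (95% interval -0.50 to -0.13, limma adjusted p = 0.0648). In Vec cells it was called under 3 of 15 alternatives. Those were the fit without the 30% of genes with the lowest mean (0.0403), the variance trend (0.0268) and only the compared arrays (0.0427). Its 3 probe sets gave -0.39, -0.27 and -0.06 in VHL cells and -0.31, 0.01 and -0.13 in Vec cells, so the size depended on the probe set.

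KDM6B read 8.22, 8.20 and 8.05 in VHL deprived, 8.36, 8.41 and 8.31 in VHL control, 8.52, 8.54 and 8.53 in Vec deprived and 8.48, 8.55 and 8.54 in Vec control cells. VHL deprived cells were the lowest group, and the Vec groups overlapped. The VHL response was -0.20 ± 0.05 (limma adjusted p = 0.0281), seen in 1 of 3 probe sets. It was lost with the mean of the 3 (-0.0486, 0.629), with only the compared arrays (0.0905), and without VHL deprived replicate 3 (-0.147, 0.100) or VHL control replicate 1 (-0.201, 0.0774) or 2 (-0.176, 0.101). In Vec cells KDM6B gave 0.01 ± 0.05 (95% interval -0.11 to 0.12). Without VHL control replicate 1, where KDM2A and KDM6B are both lost, 2 of the 10 genes were called in VHL cells.

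The other genes were not called on deprivation. KDM3A gave 0.20 ± 0.07 in VHL cells (95% interval 0.06 to 0.34, limma adjusted p = 0.0698), with VHL deprived arrays above VHL control arrays, and 0.03 ± 0.07 in Vec cells (-0.11 to 0.17). In VHL cells it was called under 4 of 14 alternatives, with limma adjusted p between 0.0332 and 0.217 over the 14. Among the 4 were the fits without the 30% of genes with the lowest mean (0.0435), with the variance trend (0.0340) and without VHL control replicate 2 (0.253, 0.0477). KDM3B gave -0.10 ± 0.05 and -0.08 ± 0.05, and with the mean of its probe sets it was called in VHL cells (-0.175, limma adjusted p = 0.0229). For KDM5A and KDM5B the values ran from -0.07 to 0.06 in VHL cells and 0.01 to 0.05 in Vec cells, with 95% intervals that lay between -0.20 and 0.19.

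**Figure D3:**
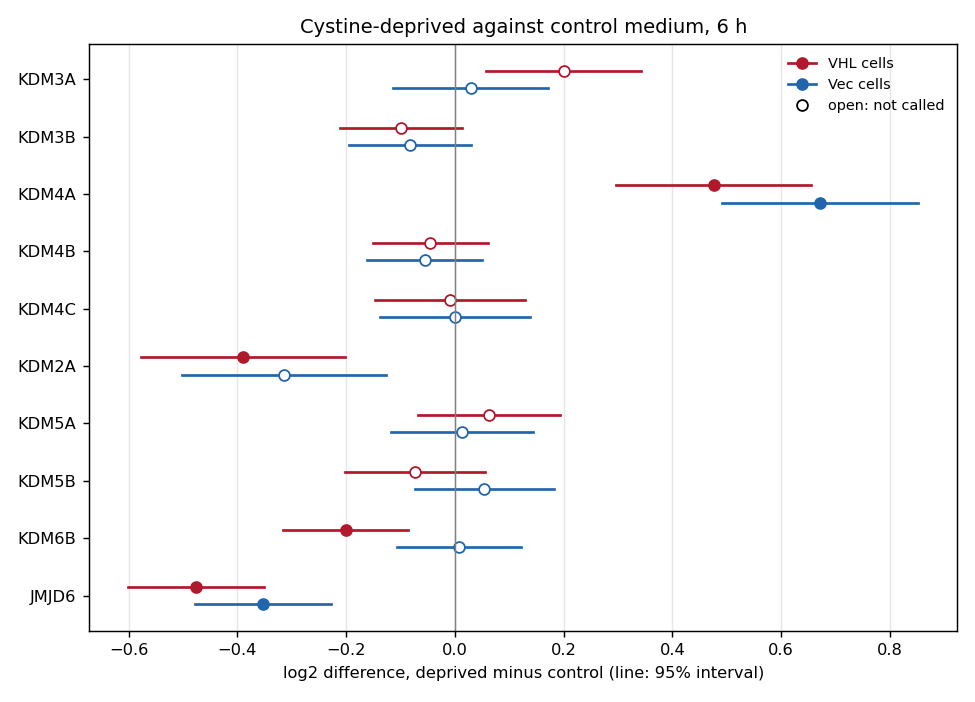
Log2 difference between deprived and control medium (horizontal axis, deprived minus control) for each of the 10 genes (vertical axis), in VHL and in Vec cells. Points are estimates of the limma fit, filled where called, and lines are 95% intervals. KDM4A lies above 0 and JMJD6 below 0 with filled points in both lines, and the KDM4B, KDM4C, KDM5A and KDM5B intervals include 0.

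Whether the response to deprivation differed between the lines was tested as the difference of the 2 responses (VHL minus Vec). None of the 10 genes was called in limma (adjusted p between 0.383 and 0.984), where 0.134% of all genes were (0.125% higher and 0.00836% lower), and 1 of the 10 had an unadjusted p under 0.05. That gene was KDM6B, at -0.21 ± 0.07 (95% interval -0.37 to -0.05). For KDM4A the difference was -0.20 ± 0.12 (-0.45 to 0.06), for KDM3A 0.17 ± 0.09 (-0.03 to 0.37) and for JMJD6 -0.12 ± 0.08 (-0.30 to 0.05). The calls of KDM2A and KDM6B in VHL cells alone are therefore not shown to be particular to that line.

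Probe sets of 1 gene did not always agree, among bright ones too, as the KDM2A values in Vec cells show. Of the 6 dimmest of the 27, with means between 4.34 and 6.55, 1 was called in any comparison, that of JMJD6 between VHL and Vec cells in both media. No call of presence entered here, so a dim probe set near 0 does not show that the transcript was unchanged.

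**Figure D4:**
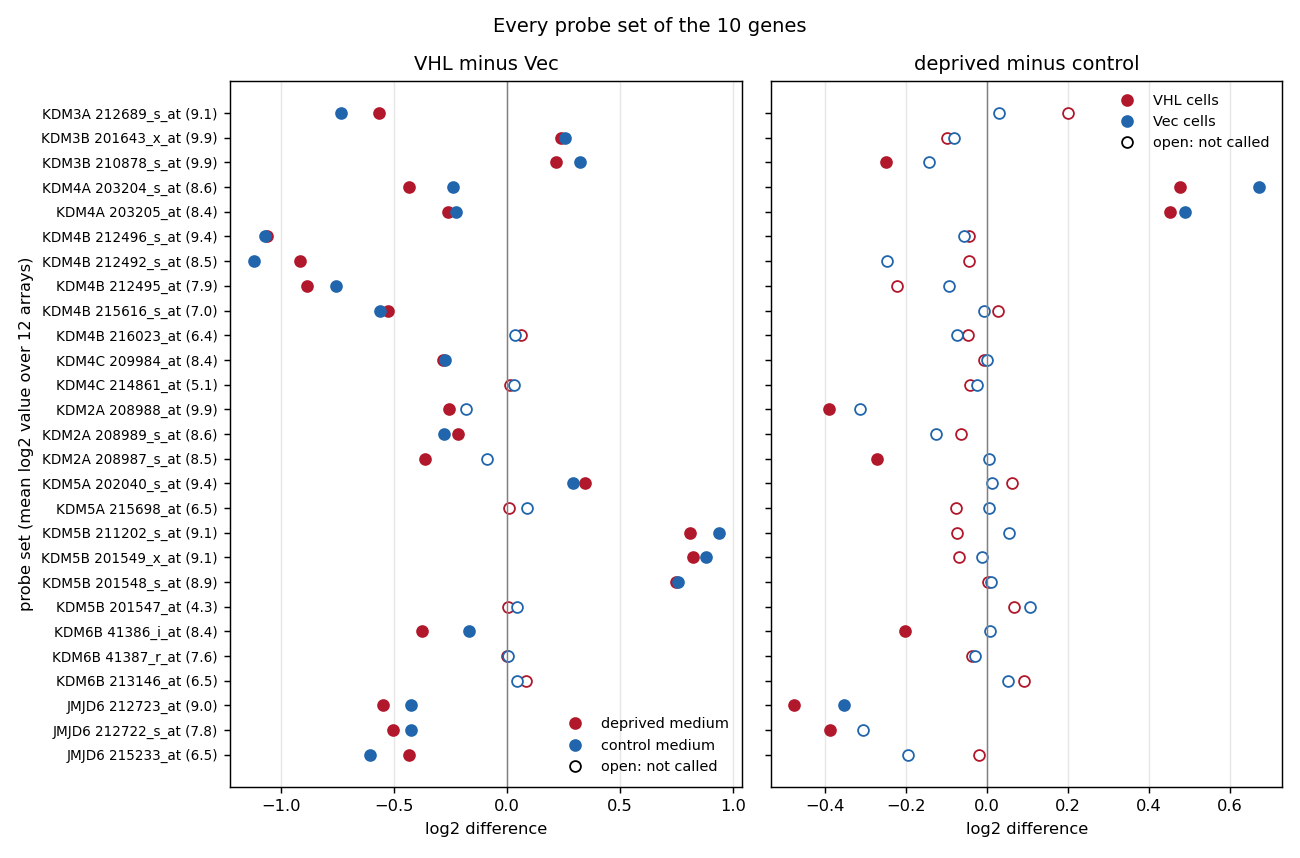
Log2 differences (horizontal axes) of every probe set of the 10 genes (vertical axis, with the mean log2 value over 12 arrays in parentheses), tested on its own over 22215 probe sets. The left panel shows VHL minus Vec in each medium and the right panel deprived minus control in each line, with filled points where called. The bright KDM4B, KDM5B, JMJD6 and KDM4A probe sets move alike, those of KDM6B do not, and the second KDM5A probe set is dim.

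Lists of related genes were read in the same fit, against the shares of all genes called, which were 11.6% in VHL and 4.18% in Vec cells on deprivation, and 47.2% in deprived and 46.1% in control medium between the lines. Of 15 other measured JmjC proteins, 3 rose and none fell in VHL cells, and 2 rose and none fell in Vec cells, with median log2 differences of 0.12 in both. KDM7A, a demethylase of lysine 9 and lysine 27, rose by 0.74 in VHL and 0.89 in Vec cells, and HSPBAP1, named for its binding to a small heat shock protein, by 0.50 and 0.72. JARID2, a partner of Polycomb without known demethylase activity, rose by 0.24 in VHL cells. Between the lines, 6 of the 15 were lower and none higher in deprived medium, and 6 lower and 1 higher in control medium. The totals of 6 and 7 called were near the shares over all genes, but the directions were not evenly split. Of all genes 23% were called lower in each medium, and 24.2% and 23.1% higher. The median log2 differences of the 15 were -0.087 and -0.137, with 1 and 4 of them above 0. PHF2, a lysine 9 demethylase, gave -0.76 and -0.81, and RIOX2, a ribosomal oxygenase, -0.38 and -0.36.

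Of 24 other measured dioxygenases that use iron and 2-oxoglutarate, 1 fell in each line on deprivation, EGLN1, the main HIF prolyl hydroxylase, at -0.27 in VHL and -0.18 in Vec cells, and over the alternatives the count ran from 0 to 2 in VHL and 0 to 1 in Vec cells. Between the lines, 6 were higher and 4 lower in deprived medium and 7 higher and 5 lower in control medium, which is near the 47.2% and 46.1% called over all genes. The largest negative differences were those of known HIF targets, EGLN3 at -3.11 and -3.24, and the collagen prolyl hydroxylase subunit P4HA1 at -1.76 and -1.70. The KDM4B and KDM3A differences were smaller than these. P4HA2, another HIF target of this list, gave -0.92 and -0.94, between the differences of KDM4B and KDM3A.

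Among 22 measured histone lysine methyltransferases, which place the marks, 3 rose and 1 fell in VHL cells and 2 fell in Vec cells, and over the alternatives the count called ran from 0 to 4 and from 0 to 2. EHMT2, which dimethylates lysine 9, gave -0.23 in VHL and -0.25 in Vec cells (limma adjusted p = 0.0229 and 0.0307). Between the lines, 3 were higher and 7 lower in deprived and 3 higher and 8 lower in control medium, again near the 47.2% and 46.1% over all genes. SETDB1, which trimethylates lysine 9, was higher in VHL cells by 0.71 and 0.52, and SUV39H1, another lysine 9 methyltransferase, gave -0.74 and -0.76.

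Of 15 measured genes that make or use 2-oxoglutarate, 2 rose and 2 fell in VHL cells and 2 rose in Vec cells, where 11.6% and 4.18% of all genes were called. Over the alternatives the count ran from 1 to 4 in VHL and 1 to 2 in Vec cells. The lowest count, 1, came in both lines from leaving out _x_at and _s_at probe sets, with 8 genes still measured. GOT1, the cytosolic aspartate aminotransferase, rose by 0.58 and 0.89, and PSAT1, the phosphoserine aminotransferase, by 0.86 and 0.78. IDH3A, a subunit of the mitochondrial NAD-dependent isocitrate dehydrogenase, fell in VHL cells (-0.41). Between the lines, 8 were higher and 3 lower in deprived and 8 higher and 5 lower in control medium, beside 47.2% and 46.1% of all genes, and over the alternatives the count ran from 8 to 13 and from 8 to 14. The lowest count, 8, came from leaving out _x_at and _s_at probe sets, where all 8 genes still measured were called. IDH1, the cytosolic isocitrate dehydrogenase that makes 2-oxoglutarate, was higher in VHL cells by 0.85 and 0.76. SDHC gave 0.74 and 0.82, and DLD 0.76 and 0.87. Others of this list went the other way, GLUD1 at -0.65 and -0.56 and IDH3A at -0.49 and -0.24.

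The genes whose values over the 12 arrays were most like those of the 4 members with the widest range of group means were found by Pearson's r, given as a description since the arrays fall into 4 groups. KDM4B was closest to MIF, COL5A1 and ENO2 (r = 0.998, 0.997 and 0.997), and KDM5B to COPB2, AK1 and RBM47 (r = 0.996, 0.995 and 0.994). KDM4A was closest to GTPBP2, GOT1 and MOCOS (r = 0.975, 0.966 and 0.966), each higher in deprived than in control medium in both lines by 0.38 to 0.89. JMJD6 was closest to ZBTB7A, GINS1 and NDUFA8 (r = 0.978, 0.978 and 0.973).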

How the data were processed

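RNA of 12 samples was measured on single-colour Affymetrix arrays. The deposited values are log2 expression values per probe set and array, a unit read from the values (3.26 to 14.8). How the authors summarised or normalized them is not given in the sources used here, and they were used unscaled and unfiltered. Per the labels' protocols, total RNA was extracted with RNeasy kits and amplified with MessageAmp Premier for hybridization. Of 22215 probe sets, 19064 named 1 gene, in GEO's platform annotation, and 19052 of these were matched to RefSeq (GRCh38.p14), giving 11963 genes. limma 3.58.1 (R 4.3.3) estimated a mean for each of the 4 groups from all 12 arrays together, with 12.7 degrees of freedom after moderation, two-sided tests and Benjamini-Hochberg adjustment over 11963 genes. The fit was tested on simulated data. Values after ± are the fit's standard errors. The members, lists and naming rule were chosen with earlier results of these data known. The rule named all 10 members, up to 3 called genes per list and comparison, and the 3 genes most like each of 4 members. Alternatives were other scalings, a low-value filter, other probe set choices, a variance trend, fewer arrays and a replicate block. Testing each probe set alone was added after the data were seen. The number of arrays limits precision.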

Additional observations from a re-analysis of the deposited data

How the results depend on the processing

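Among the recomputed differences of single members, 720 kept their direction and their side of the threshold, 27 lost and 10 gained a call, and 33 changed sign, none of them called. The variance trend, replicate block and low-value filter leave a member's difference as it was and could only change its call. The same holds for the compared arrays alone and for each probe set alone. Leaving out _x_at and _s_at probe sets, which leaves 8 members, 6 were called between the lines in deprived and 5 in control medium, beside 10 and 9, and KDM5A and KDM5B then rest on dim probe sets. Leaving out 1 array gave 2 to 4 members called on deprivation in VHL cells, 2 in Vec cells, 0 for the difference of responses, and 9 to 10 and 8 to 9 between the lines in deprived and control medium. Sign changes by setting were as follows. With the mean of probe sets, KDM5A gave -0.0073 in VHL deprivation and -0.0159 for the difference of responses, and KDM4C -0.0114 in Vec deprivation. Without _x_at and _s_at probe sets, KDM5A gave -0.0776 and KDM5B 0.0659 in VHL deprivation, and KDM4B -0.128 and KDM5A -0.0823 for the difference of responses. With median centring KDM4C gave -0.0037 in Vec deprivation and KDM4B -0.0145 for the difference, and with quantile normalization KDM4B gave -0.00395 for the difference. Leaving out 1 array turned uncalled values of KDM2A, KDM3B, KDM4B, KDM4C, KDM5A and KDM6B, and their ranges were -0.138 to 0.0282 for KDM2A, -0.0442 to 0.0213 for KDM3B, -0.0143 to 0.0511 for KDM4B, -0.0572 to 0.0345 for KDM4C and -0.00196 to 0.106 for KDM5A in the difference of responses. In VHL deprivation the range was -0.0565 to 0.0351 for KDM4C, and in Vec deprivation -0.0376 to 0.0403 for KDM4C, -0.0431 to 0.0584 for KDM5A and -0.0132 to 0.0219 for KDM6B. The cause was not tested. Residuals of arrays of different groups sharing a replicate number correlated between -0.268 and 0.235 (median 0.0526, 18 pairs). With different numbers they correlated between -0.350 and 0.291 (median -0.0179, 36 pairs). Whether equal numbers mark samples handled together cannot be told from these values. With the replicate block 5 and 2 members were called on deprivation in VHL and Vec cells, 0 for the difference, and 10 and 9 between the lines. The added call was KDM3A in VHL cells (limma adjusted p = 0.0332).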
